A study of Mus musculus with 6 samples.

Results

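The clustered protocadherins are 3 neighbouring gene families on mouse chromosome 18, alpha, beta and gamma, and were taken as every gene record of the mm9 (NCBIM37) annotation on that chromosome with a name starting Pcdha, Pcdhb or Pcdhg. The rule gave 25 gene records of 37310, and because the annotation merges most alpha and gamma isoforms into 1 record per family, each variable first exon was treated as a member. There were 41 such exons: 10 alpha, 22 beta and 9 gamma. They cover 10 of the 14 alpha and 9 of the 22 gamma genes that RefSeq names, including all 5 C-type isoforms. The others, among them Pcdha5 to Pcdha8, were not analysed here, so sums and orders along alpha and gamma are over incomplete arrays. The values are reads of ChIP-Seq for acetylation of lysine 5 on histone H4 (H4K5ac), of a control immunoprecipitation with non-specific IgG (IgG-IP) and of input DNA, from the hippocampus of C57/BL6 mice 6 months of age. FC mice learned to associate a context with a foot shock, control (CON) mice were exposed to the context alone, and tissue was taken 1 h after a memory test. The labels name no allele or transgene. The methods describe 3 hippocampal samples per group, and each group has 1 library of each kind, so there is no replicate, no test was run and every 95% interval below covers counting error within 2 libraries only.

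Protocadherins are cell adhesion proteins of the neuronal surface. In the alpha and gamma families each variable first exon has its own promoter and encodes the extracellular cadherin repeats, the membrane span and a short tail, and is spliced to constant exons that encode a cytoplasmic tail shared by the family, whereas each beta gene is a single exon with no constant part. Individual neurons are known to choose a few of the alternate isoforms by promoter choice, which gives each cell an adhesive identity, while the C-type isoforms at the end of the alpha and gamma arrays (Pcdhac1, Pcdhac2, Pcdhgc3, Pcdhgc4 and Pcdhgc5) are used more broadly. Whole hippocampus was sequenced, so a mark carried by few cells and a mark that is weak in many cells cannot be told apart.

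The 6 libraries held 31605738 (FC) and 35962226 (CON) reads of H4K5ac-ChIP, 14549689 and 16491741 reads of IgG-IP, and 45673239 and 35493806 reads of input. Levels are given as reads per kb of region scaled to library depth (RPKM), and differences as log2 ratios of reads scaled to these totals, where 0 is equal density. The ratio of H4K5ac over IgG varied with base composition. In 1 kb windows of 40% GC the log2 ratio of H4K5ac over IgG was -0.16 in FC and -0.11 in CON, and in windows of 54% GC it was 1.29 and 1.02. The promoters of 6 hippocampal neuron markers had a median H4K5ac of 0.585 RPKM in FC and 0.542 in CON. It was 0.696 and 0.514 for 5 genes of other tissues and 0.633 and 0.598 for all other protein-coding genes. Promoter level thus did not set these neuron markers apart. Medians of other cell types were higher than those of all other genes for astrocytes (0.712 and 0.723), oligodendrocytes (0.981 and 1.03) and microglia (0.728 and 0.709). Those of the 2 vessel markers were lower (0.577 and 0.577).

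Summed H4K5ac over the variable first exons was lowest in the beta family, intermediate in alpha and highest in gamma, in both groups. The 22 beta exons (78893 bp in all) held 576 H4K5ac reads in FC and 520 in CON, or 0.231 and 0.183 RPKM. The 10 alpha exons (24240 bp) held 273 and 260 reads, or 0.356 and 0.298 RPKM. The alpha sum depended on its 2 C-type exons. The 8 alternate alpha exons alone were at 0.284 and 0.218 RPKM, above beta in both libraries but with separate intervals that overlapped those of beta. Such overlap does not show equal density, and no interval was computed for the ratio of these exons to beta. The 9 gamma exons (23975 bp) held 589 and 560 reads, or 0.777 and 0.650 RPKM. The density over gamma was 3.36 times that over beta in FC (95% interval 2.99 to 3.78) and 3.54 times in CON (3.14 to 4.00), and 2.18 times that over alpha in both libraries. The IgG-IP densities of the families differed less: FC IgG-IP had a gamma to beta ratio of 0.936 (0.773 to 1.13), and CON IgG-IP one of 0.923 (0.771 to 1.1). The same ratio was higher in FC input, at 1.5 (1.37 to 1.63), than in CON input, at 1.02 (0.899 to 1.15).

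**Figure D1:**
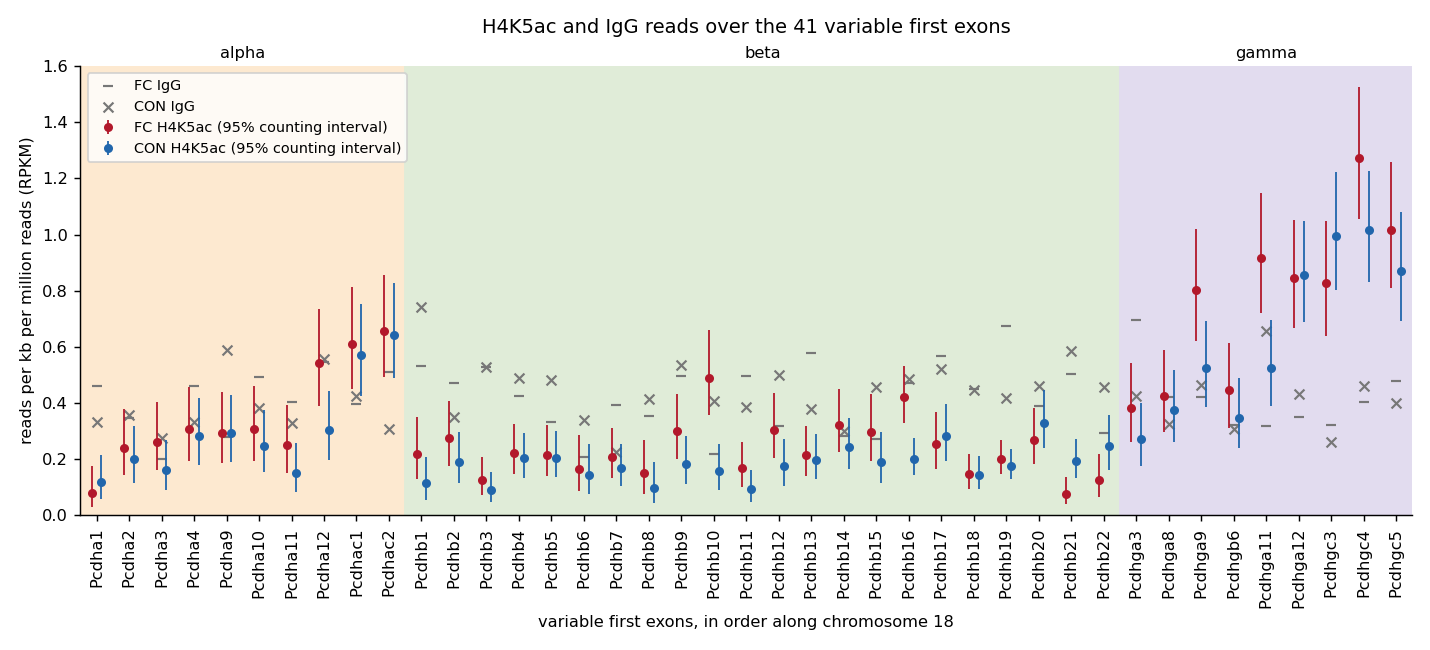
H4K5ac level (RPKM) over each variable first exon in the order of the exons along chromosome 18, with 95% counting intervals, FC in red and CON in blue; grey marks are the IgG-IP levels. Beta exons lie between 0.0747 and 0.49 RPKM, and levels are higher toward the end of alpha and gamma, with Pcdhgc4 at 1.27 in FC and 1.01 in CON, although Pcdhgc3 in FC lies below 2 alternate exons.

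Read against IgG-IP, the summed beta exons were below the control and the summed gamma exons above it. For beta the summed log2 ratio of H4K5ac over IgG was -0.93 in FC (-1.11 to -0.76) and -1.29 in CON (-1.47 to -1.12). For alpha it was -0.20 (-0.49 to 0.11) and -0.38 (-0.67 to -0.08). For gamma it was 0.91 (0.65 to 1.19) and 0.65 (0.39 to 0.91). First exons of at least 1 kb in other protein-coding genes had a median log2 ratio of 0.63 in FC (n = 1521) and 0.43 in CON (n = 1509) and the median over the 9 gamma exons, with the same 0.5 reads added, was 1.06 and 0.17. Read against input instead, gamma was at 0.18 (0.02 to 0.34) in FC and 0.71 (0.51 to 0.91) in CON, and beta at -0.99 (-1.13 to -0.85) and -1.09 (-1.24 to -0.94). The gamma sum depended on its C-type exons. The 6 alternate gamma exons were at 0.61 over IgG in FC (0.28 to 0.95) and 0.18 in CON (-0.14 to 0.50), and at -0.09 over input in FC (-0.30 to 0.11) and 0.44 in CON (0.17 to 0.70). The 3 C-type gamma exons were at 1.39 and 1.36 over IgG and at 0.59 (0.34 to 0.84) and 1.05 (0.75 to 1.36) over input.

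Against sequence of the same composition, the rank of alpha depended on the group and on the part of the beta exons used. Alpha exons had 53.5% GC, beta exons 46.1% and gamma exons 53.3%, and relative to 1 kb windows of the same GC content the log2 ratios were -1.41 (FC) and -1.34 (CON) for alpha, -1.37 and -1.64 for beta, and -0.25 and -0.27 for gamma. Gamma remained highest, all 3 families were below their windows, and alpha was no longer above the whole beta exons in FC. The beta exons include untranslated ends, whereas the alpha exons are coding throughout. Over the coding part of the beta exons alone the values were -1.63 (FC) and -2.02 (CON), so alpha was then above beta in both groups.

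Members were also counted past a fixed fold. Of all first exons with at least 10 reads in both libraries together, 52.3% exceeded IgG by more than 2-fold in FC and 41.8% in CON; among those of at least 1 kb, which are closer in length to the protocadherin exons, the shares were 37.3% and 30.1%. All 41 members passed the minimum of reads, and 6 exceeded IgG by more than 2-fold in FC and 4 in CON. In FC these were Pcdhga11, Pcdhga12, Pcdhgc3, Pcdhgc4, Pcdhgc5 and Pcdhb10, and in CON Pcdhgc3, Pcdhgc4, Pcdhgc5 and Pcdhac2. More than 2-fold below IgG were 10 beta and 1 alpha exon in FC, and 15 beta and 3 alpha exons in CON, where 17.3% and 20.0% of exons of at least 1 kb were that low. No gamma exon was. With 1 read per position and strand, 3 exons exceeded IgG by more than 2-fold in FC, where 34.9% of exons of at least 1 kb did. With input in place of IgG no member did in FC, where 11.8% of exons of at least 1 kb did.

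Within alpha, H4K5ac increased along the array. Pcdha1, the first exon of the family (chr18:37089939-37092326), held 6 H4K5ac reads in FC and 10 in CON, with 16 and 13 IgG reads and 48 and 33 input reads. It was the lowest alpha exon, at 0.0795 and 0.116 RPKM, and lay below IgG in both groups (log2 ratio -2.53, interval -4.18 to -1.11, and -1.5, interval -2.85 to -0.20). Pcdha11 (chr18:37170512-37172905), the second lowest by the mean of both groups, held 19 and 13 H4K5ac reads, with 14 and 13 IgG reads and 51 and 39 input reads. The 2 C-type exons stood at the other end. Pcdhac1 (chr18:37249790-37252225) held 47 and 50 H4K5ac reads, with 14 and 17 IgG reads and 79 and 33 input reads. Pcdhac2 (chr18:37303623-37306184) held 53 and 59 H4K5ac reads, with 19 and 13 IgG reads and 71 and 36 input reads. At 0.655 and 0.64 RPKM Pcdhac2 was at the 72.7 and 77.4 percentile of the 1840 other first exons of at least 1 kb, and Pcdha1 at the 13.2 and 23.3 percentile.

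The pair of C-type alpha exons had 2.23 times the H4K5ac density of the 8 alternate exons in FC (1.72 to 2.86) and 2.78 times in CON (2.15 to 3.58), while their IgG-IP density was 1.14 times (0.75 to 1.70) and 0.92 times (0.60 to 1.39) that of the alternates, and their input density 1.32 times (1.09 to 1.60) and 0.995 times (0.752 to 1.3). Their GC content was 52.7% against 53.7% for the alternates. The 8 alternate exons together were below IgG, at -0.48 (-0.83 to -0.12) and -0.85 (-1.20 to -0.50). Across the 10 exons the rank of H4K5ac RPKM followed the order on the chromosome, with a Spearman correlation of 0.87 in FC and 0.77 in CON, against 0.48 and 0.16 for IgG-IP and 0.70 and -0.18 for input, so in FC the input library rose along the array as well.

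The gamma family showed the same direction at a higher level. Pcdhga3, the first gamma exon analysed (chr18:37833989-37836561), held 31 H4K5ac reads in FC and 25 in CON, with 26 and 18 IgG reads and 65 and 37 input reads, and was the lowest gamma exon at 0.381 and 0.27 RPKM. Scaled to library totals, its H4K5ac was below IgG in both groups. In FC it was the only gamma exon whose interval lay wholly below IgG, and in CON no gamma exon had such an interval. Pcdhgb6 (chr18:37901748-37904312), the second lowest by the mean of both groups, held 36 and 32 H4K5ac reads, with 12 and 13 IgG reads and 63 and 33 input reads. Both lay near the middle of other long first exons, between the 45.3 and 57 percentile. Pcdhga12, the last alternate exon (chr18:37925234-37928194), held 79 and 91 H4K5ac reads, with 15 and 21 IgG reads and 87 and 32 input reads and at 0.844 and 0.855 RPKM it was the highest alternate exon in CON. In FC the alternate Pcdhga11 was higher, at 0.914 RPKM, and Pcdhga9 was at 0.801.

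The 3 C-type gamma exons had the highest H4K5ac of the 41 by the mean of both groups. Pcdhgc3 (chr18:37966064-37968631), the isoform whose exon lies first among them, held 67 H4K5ac reads in FC and 92 in CON, with 12 and 11 IgG reads and 77 and 42 input reads, and in FC, at 0.825 RPKM, it was below the alternates Pcdhga11 and Pcdhga12. Pcdhgc4 (chr18:37974733-37977637) held 117 and 106 H4K5ac reads, with 17 and 22 IgG reads and 95 and 51 input reads, and was the highest exon in each library. Pcdhgc5, the last exon of the cluster (chr18:37979200-37981788), held 83 and 81 H4K5ac reads, with 18 and 17 IgG reads and 84 and 40 input reads. All 3 exceeded IgG in both groups with intervals above 0, from 1.09 (0.34 to 1.91) for Pcdhgc5 in FC to 1.94 (1.03 to 2.99) for Pcdhgc3 in CON. In CON their intervals of RPKM overlapped one another, and in FC those of Pcdhgc4 (1.054 to 1.53 RPKM) and Pcdhgc3 (0.64 to 1.048) narrowly did not. The 6 alternate gamma exons had 0.640 RPKM in FC and 0.491 in CON, and the C-type exons 1.05 and 0.962, or 1.64 times (1.39 to 1.93) and 1.96 times (1.65 to 2.32) as much, with input at 1.02 times (0.873 to 1.19) and 1.28 times (1.02 to 1.60). GC content rose with it, from 52.2% to 55.5%. Relative to windows of the same GC content the C-type gamma exons were at 0.05 (FC) and 0.30 (CON), the alternate gamma exons at -0.46 and -0.66, the C-type alpha exons at -0.63 and -0.14, and the alternate alpha exons at -1.72 and -1.84. Across the 9 gamma exons the Spearman correlation between chromosome order and H4K5ac RPKM was 0.90 in each group, against -0.27 (FC) and -0.03 (CON) for IgG-IP and -0.03 and 0.55 for input.

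**Figure D2:**
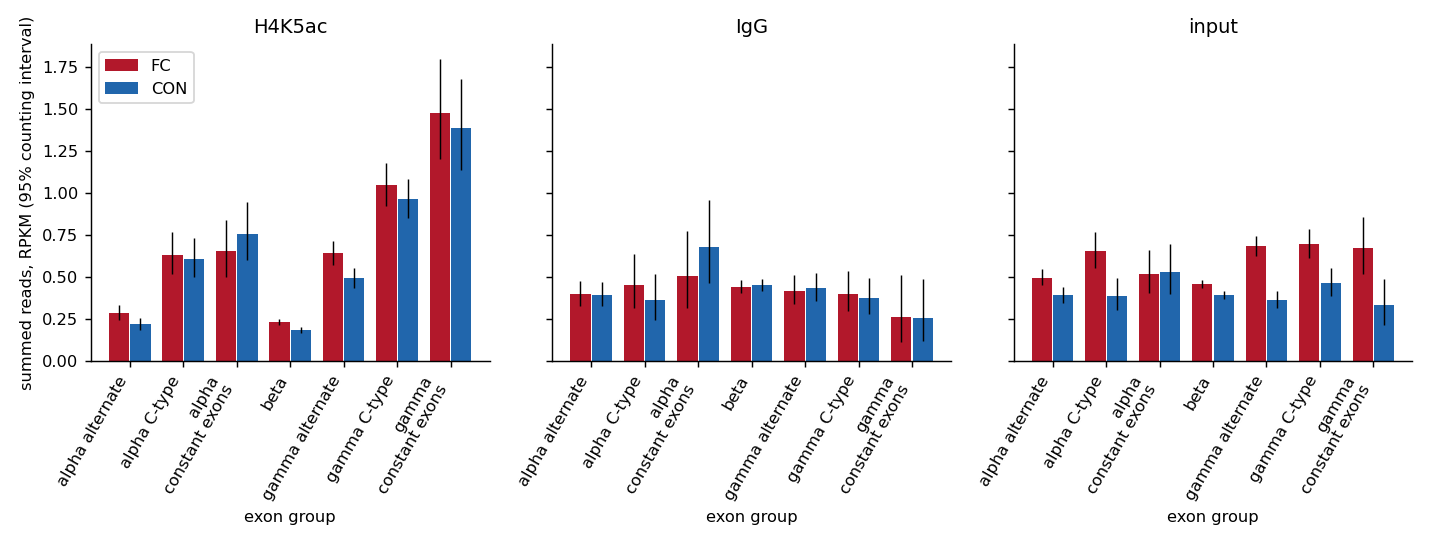
Reads summed over alternate, C-type and constant exons of alpha and gamma and over the beta exons, as RPKM with 95% counting intervals, for H4K5ac, IgG-IP and input, FC in red and CON in blue. Summed H4K5ac is higher in C-type than in alternate exons in alpha (0.633 against 0.284 in FC) and gamma (1.05 against 0.640), and the gamma constant exons are highest at 1.48 in FC and 1.39 in CON, while IgG-IP stays between 0.258 and 0.678 in all groups.

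The beta genes have no C-type exons. Pcdhb1 (chr18:37424652-37427108) held 17 H4K5ac reads in FC and 10 in CON, with 19 and 30 IgG reads and 93 and 33 input reads. Pcdhb3 (chr18:37460453-37464239), the lowest by the mean of both groups, held 15 and 12 H4K5ac reads, with 29 and 33 IgG reads and 62 and 62 input reads. Pcdhb8 (chr18:37514925-37517264), the second lowest by that mean, held 11 and 8 H4K5ac reads, with 12 and 16 IgG reads and 62 and 28 input reads. All 3 were below IgG in both groups, although the interval of Pcdhb8 in FC reached 0.06. By the mean of both groups the highest beta exons were Pcdhb10 and Pcdhb16, described with the comparison of FC and CON, but neither was highest in CON. At the end of the array Pcdhb22 (chr18:37678007-37681073) held 12 and 27 H4K5ac reads, with 13 and 23 IgG reads and 63 and 41 input reads. No beta exon exceeded IgG in CON, and 17 of 22 had an interval wholly below 0 there, against 9 of 22 in FC. Of other first exons of at least 1 kb with 10 reads, 14.0% in CON and 11.3% in FC had such an interval. Across the 22 exons the Spearman correlation between FC and CON H4K5ac RPKM was 0.31, compared with 0.92 across the 10 alpha and 0.87 across the 9 gamma exons. The counts per beta exon are small, and the order of single beta exons was not determinable at this depth.

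Beta records include long untranslated ends, and over the coding part alone (51.4% GC) of the 21 genes whose record holds a coding sequence, all but Pcdhb20, beta was still below IgG, by a log2 ratio of -0.63 (-0.85 to -0.40) in FC and of -1.23 (-1.45 to -1.01) in CON. Beta paralogs are similar in sequence and the submitters' mapping reported reads with several placements, so values of single beta exons are uncertain. Of the H4K5ac reads in first exons, 9.72% (FC) and 10.4% (CON) in beta and 7.33% and 9.62% in alpha had a mapping score under 20, against 4.75% and 3.21% in gamma. The other libraries did not show this difference to the same degree. In IgG-IP the shares were 5.14% and 5.98% in beta against 6.94% and 6.10% in gamma. In input they were 7.68% and 6.69% in beta against 6.38% and 6.51% in gamma.

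Around the start of the beta exons H4K5ac was highest in the first kb. The 22 exons together held 140 (FC) and 165 (CON) H4K5ac reads in the kb before the start, 239 and 218 in the first kb of the exon, and 145 and 122 in the next. IgG reads in the same intervals were 151 and 207, then 132 and 172, then 105 and 153. Input reads were 318 and 362, then 636 and 342, then 497 and 284, so FC input rose into the exon too and CON input did not. The log2 ratios over IgG in the first kb were -0.26 (FC, -0.58 to 0.06) and -0.78 (CON, -1.08 to -0.49), and -1.23 (-1.57 to -0.89) and -1.45 (-1.76 to -1.15) in the kb before. Gamma exons were above IgG in each of the first 3 kb after the start, at 0.69 to 1.16 in FC and 0.59 to 0.82 in CON, with intervals above 0. In alpha the ratio was below 0 in every kb from 4 kb before to 4 kb after the start.

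**Figure D3:**
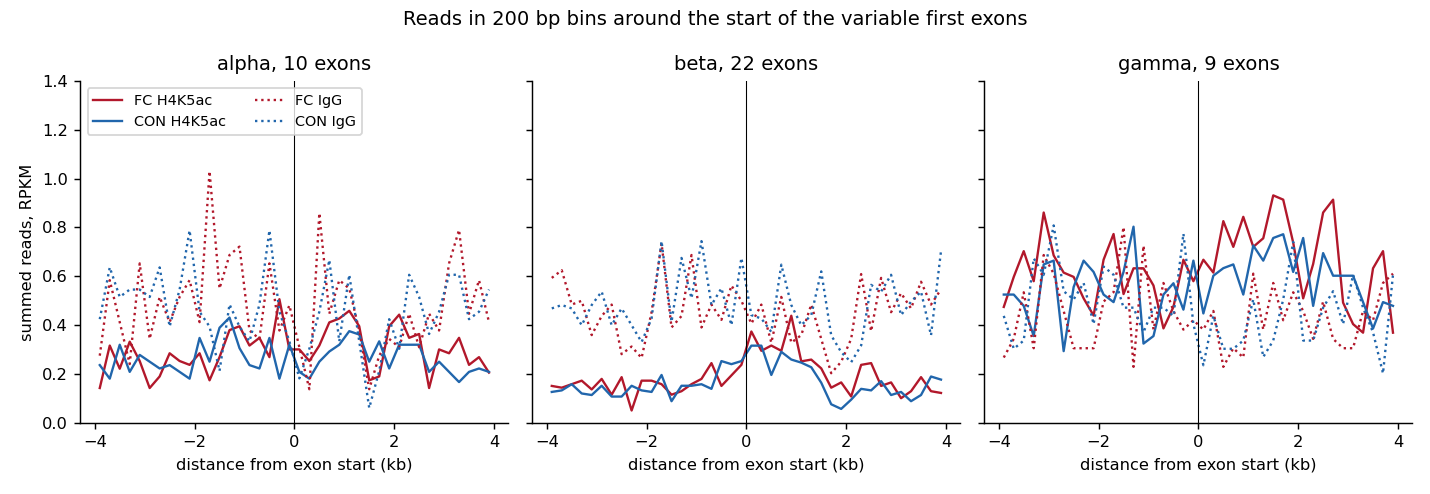
Reads in 200 bp bins from 4 kb before to 4 kb after the start of the variable first exons, summed over the 10 alpha, 22 beta and 9 gamma exons, as RPKM; solid lines are H4K5ac-ChIP and dotted lines IgG-IP, FC in red and CON in blue. H4K5ac in beta rises in the first kb of the exon but mostly stays under IgG-IP, and in gamma it lies above IgG-IP in most bins over the exon.

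The promoters, taken as the 2 kb before each exon, repeated the order of the summed exons at low GC content. The records of all 10 alpha exons and of Pcdhb1, Pcdhb6 and Pcdhb8 start at the coding sequence, and no gamma record does. Promoters of those alpha and beta exons thus include any untranslated sequence before the start codon. The 22 beta promoters held 249 H4K5ac reads in FC and 283 in CON (0.179 RPKM in each), the 10 alpha promoters 210 and 219 (0.332 and 0.304), and the 9 gamma promoters 346 and 351 (0.608 and 0.542). Over IgG the log2 ratios were -1.51 (-1.75 to -1.27) and -1.67 (-1.89 to -1.44) for beta, -0.83 (-1.13 to -0.53) and -0.58 (-0.89 to -0.27) for alpha, and 0.25 (-0.04 to 0.55) and 0.05 (-0.23 to 0.33) for gamma. The 8 alternate alpha promoters alone were at 0.202 RPKM in each group. Over IgG they were at -1.64 (FC) and -1.26 (CON), so in FC not above beta. Over input the ratios were -0.73 (-0.95 to -0.51) and -1.32 (-1.53 to -1.12) for beta. They were 0.13 (-0.14 to 0.39) and -0.49 (-0.74 to -0.23) for alpha, and 0.36 (0.15 to 0.57) and 0.36 (0.13 to 0.60) for gamma. Among all promoters with at least 10 reads, 47.7% exceeded IgG by more than 2-fold in FC and 41.1% in CON, whereas 0 of 41 protocadherin promoters did in FC and 3 in CON (Pcdhac2, Pcdhgc4 and Pcdhgc5). No test underlies this count of 0, and Pcdhgc3, Pcdhgc4 and Pcdhgc5 lay at the edge of the threshold in FC, at 1.02, 1.00 and 1.03 before the 0.5 reads that the count adds to each library. More than 2-fold below IgG were 24 promoters in FC and 27 in CON, of which 17 and 20 were beta, where 12.3% and 13.4% of all promoters were that low. With input in place of IgG fewer promoters were that low in FC, with the count in the closing section. The promoters had 36.6% (beta), 37.1% (alpha) and 42.5% (gamma) GC, and relative to windows of the same GC content the log2 ratios were -0.86 and -1.18 for beta, -0.23 and -0.11 for alpha, and 0.20 and -0.00 for gamma.

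Summed, the C-type promoters were above the alternate promoters, and the 10 kb windows around them, described below, were higher too. The promoter of Pcdhac2, the highest in alpha, held 56 H4K5ac reads in FC and 61 in CON, with 13 and 7 IgG reads and 42 and 23 input reads. The promoter of Pcdhac1 held 52 and 42 H4K5ac reads, with 13 and 16 IgG reads and 42 and 44 input reads. The 8 alternate alpha promoters held 5 to 26 H4K5ac reads each, so both C-type promoters exceeded every alternate in each library. Their density was 4.24 times that of the alternates in FC (3.20 to 5.61) and 3.55 times in CON (2.70 to 4.67), with IgG-IP at 0.712 times (0.45 to 1.09) and 0.724 times (0.443 to 1.14) and input at 1.73 times (1.32 to 2.25) and 1.14 times (0.852 to 1.5). In gamma, the promoter of Pcdhgc4 held 65 and 79 H4K5ac reads, with 15 and 17 IgG reads and 63 and 29 input reads, the highest of the family by the mean of both groups. The 3 C-type gamma promoters had 2.41 times (1.94 to 2.99) and 2.33 times (1.88 to 2.90) the density of the 6 alternates, and input 1.54 times (1.25 to 1.89) in FC and 0.989 times (0.758 to 1.28) in CON. The promoter of Pcdhgc5 overlaps the exon of Pcdhgc4 by 438 bp, and without it, an alternative chosen after seeing the data, the H4K5ac ratios were 2.25 (1.76 to 2.88) and 2.31 (1.82 to 2.94). GC content again moved with the level: 47.6% in C-type against 34.4% in alternate alpha promoters, and 47.2% against 40.1% in gamma. Relative to windows of the same GC content the alpha C-type promoters were at 0.34 (FC) and 0.57 (CON) and the alternates at -0.73 and -0.55, and the gamma C-type promoters at 0.46 and 0.57 and the alternates at -0.12 and -0.46. Of the beta promoters the highest by the mean of both groups was that of Pcdhb16, with 22 and 29 H4K5ac reads, 23 and 15 IgG reads and 21 and 31 input reads. It overlaps the exon of the preceding gene by 573 bp.

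The constant exons, which encode the tails shared by all isoforms of a family, had a higher H4K5ac density than all variable exons of their family summed, although in alpha they were close to the C-type exons, which had 0.633 (FC) and 0.606 (CON) RPKM against 0.653 and 0.758. The 3 gamma constant exons (2119 bp, the last at chr18:37999557-38001527) held 99 H4K5ac reads in FC and 106 in CON, with 8 and 9 IgG reads and 65 and 25 input reads. The log2 ratio over IgG was 2.51 (1.48 to 3.76) and 2.43 (1.45 to 3.60), above that of the first exons or promoters of any family, but the IgG counts were few and the ratio over input was lower, at 1.14 (0.67 to 1.61) and 2.07 (1.43 to 2.76). The 3 alpha constant exons (2860 bp, the last at chr18:37344600-37347311) held 59 and 78 H4K5ac reads, with 21 and 32 IgG reads and 68 and 54 input reads, and the intervals of their ratios over IgG included 0. Density over the constant exons was 1.90 times (1.52 to 2.36) and 2.14 times (1.72 to 2.64) that over the variable exons in gamma, and 1.83 times (1.36 to 2.43) and 2.54 times (1.95 to 3.29) in alpha. In alpha the constant exons had less GC than the variable exons, 42.2% against 53.5%, and IgG-IP moved the same way in CON, at 1.75 times (1.16 to 2.57). Most constant-exon reads fell in the last exon of each family, which holds most of the length, with 54 and 68 in alpha and 83 and 98 in gamma.

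In 10 kb windows the 3 arrays showed their own levels beyond the exons. Upstream of alpha, the window centred at -24.9 kb from the start of Pcdha1 had a log2 ratio over IgG of -3.07 in FC and -2.53 in CON. Along alpha the ratio varied from window to window and was highest toward the end of the array. In CON the highest window was that of Pcdhac2, centred 215 kb downstream, at 0.74 (0.46 in FC). In FC it was the window centred 245 kb downstream, at 0.70 (0.67 in CON), between the second and the third constant exon, where H4K5ac was 0.804 and 0.87 RPKM. In all 27 windows of the beta array it was negative, with a median of -1.63 in FC and -1.96 in CON. In gamma it was -0.89 and -0.85 in the window of Pcdhga3 and 1.69 (FC) and 1.60 (CON) in the window that starts within Pcdhgc5, and 13 (FC) and 10 (CON) of the 18 windows were above IgG. High H4K5ac did not end with the gamma array, since the window centred 945 kb from Pcdha1 had 1.36 and 1.32 RPKM. The window of Pcdhac2 held 0.642 (FC) and 0.640 (CON) RPKM, near the level of its exon. Windows of the C-type gamma exons held from 0.731 to 1.17 RPKM in FC and from 0.742 to 1.16 in CON. Summed, those exons had 1.05 and 0.962. The window of the last alpha constant exon held 0.623 and 0.695, against 0.630 and 0.697 for the exon. Whether these exons differ from their surroundings was not tested. A few windows had few reads in every library, such as the one centred 55.1 kb downstream of Pcdha1, with 20 and 8 H4K5ac, 18 and 18 IgG and 50 and 35 input reads, and their ratios are imprecise.

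**Figure D4:**
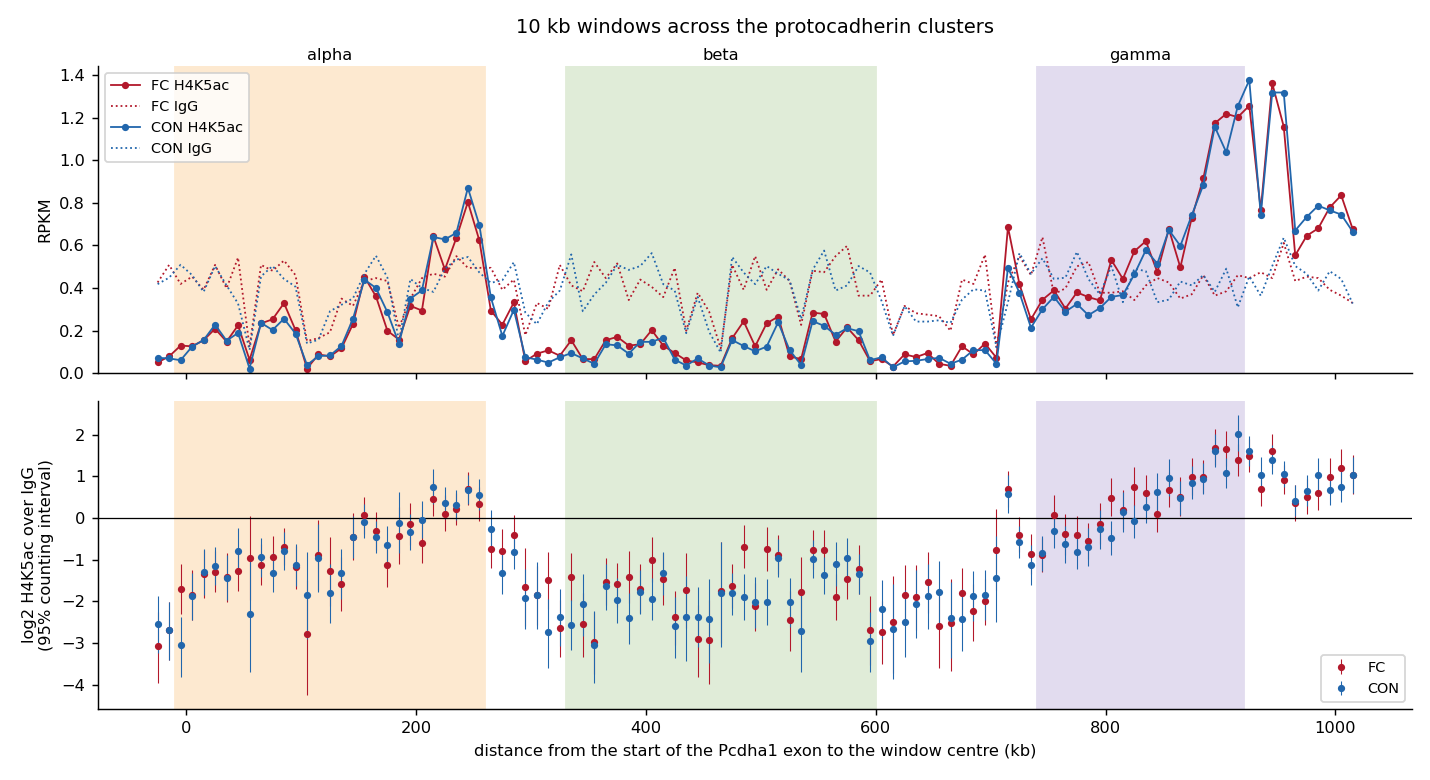
H4K5ac and IgG-IP RPKM (upper panel) and log2 H4K5ac over IgG with 95% counting intervals (lower panel) in 10 kb windows, by distance from the start of the Pcdha1 exon; shading marks the windows of each array, FC in red and CON in blue. All 27 beta windows lie under 0 in the lower panel, and the highest windows of alpha and gamma lie toward the end of each array.

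Promoters of genes beside and between the arrays were read as well. Gm6756, the nearest protein-coding gene before alpha, had a promoter with 5 and 4 H4K5ac reads and 14 and 16 IgG reads. The promoter of Gm10545, within the alpha array, lies almost wholly inside the Pcdha12 exon and shares its reads. Between beta and gamma lie Slc25a2, a mitochondrial carrier gene, with 15 and 13 H4K5ac and 9 and 8 IgG promoter reads, Taf7, which encodes a subunit of the general transcription factor TFIID, with 122 and 83 H4K5ac and 9 and 11 IgG reads, and 3222401L13Rik, with 40 and 53 H4K5ac and 14 and 17 IgG reads. Taf7 was the highest of these, at 1.93 RPKM in FC and 1.15 in CON, above 99.5% of other promoters in FC and 89.8% in CON. Diap1, a regulator of actin assembly that follows gamma, had 37 and 44 H4K5ac and 9 and 18 IgG reads at its promoter.

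The non-clustered protocadherins, which are single genes outside the 3 arrays (Pcdh1 and Pcdh12 lie on the same chromosome), had a higher median of promoter H4K5ac than each of the arrays. For the 12 of 13 listed genes in the annotation the median was 0.601 RPKM in FC and 0.577 in CON. The lowest was Pcdh11x, on chromosome X, in both groups, at 0.348 and 0.25. The highest was Pcdh1 in FC at 0.949 and Pcdh12 in CON at 1.15. Per the methods the mice were males, and levels on chromosome X were not adjusted for copy number. Medians over the clustered promoters were 0.229 and 0.216 in alpha, 0.166 and 0.153 in beta, and 0.522 and 0.375 in gamma. The C-type promoters, summed, were above the non-clustered median, at 0.854 and 0.716 in alpha and 0.997 and 0.876 in gamma. The promoters compared were not matched for GC content. Of the 12, 3 exceeded IgG by more than 2-fold in each group, where 47.7% (FC) and 41.1% (CON) of all promoters did. The 15 genes for factors that act on these promoters or on chromatin loops, such as the insulator protein Ctcf and the cohesin subunit Rad21, had medians of 0.680 and 0.667 RPKM, and 10 of the 15 exceeded IgG by more than 2-fold in each group, read against the same 47.7% and 41.1%. Among them Stag1 was highest in FC at 1.42 RPKM and Rad21 in CON at 1.36. The lowest were Nipbl in FC at 0.427 and Smc1a, also on chromosome X, in CON at 0.403. The 7 genes for signalling partners of the cytoplasmic tails, such as the kinases Ptk2 and Fyn, had medians of 0.633 and 0.653 RPKM, and 4 (FC) and 3 (CON) exceeded IgG by more than 2-fold, near those shares of all promoters.

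The comparison of FC with CON asks whether H4K5ac differed after fear memory retrieval. Summed H4K5ac over the first exons was slightly higher in the FC library in each family, with log2 ratios of 0.26 (0.01 to 0.51) in alpha, 0.33 (0.16 to 0.51) in beta and 0.26 (0.09 to 0.43) in gamma. The same ratio had a median of 0.19 over other first exons of at least 1 kb with 10 reads (n = 1484), a value within the interval of each family. Over the coding part of the beta exons alone the ratio was 0.49 (0.27 to 0.70), an interval above that median, with input at 0.52 (0.39 to 0.66). Input was also higher in FC over the whole first exons, by 0.44 (0.24 to 0.64) in alpha, 0.23 (0.12 to 0.35) in beta and 0.79 (0.60 to 0.98) in gamma, while IgG-IP was at 0.07, -0.03 and -0.01. In 1 kb windows of 54% GC the same ratio was 0.18 for H4K5ac and 0.70 for input. It was 0.06 and 0.41 in windows of 46% GC, near the beta exons, and -0.06 and -0.16 in windows of 40% GC. In windows of 37% GC, near the alpha and beta promoters, it was -0.12 and -0.54, so it moved with base composition too. Less the input difference, the H4K5ac ratios became -0.18, 0.10 and -0.53, of which alpha and gamma changed sign. Promoter sums had ratios of 0.13 (-0.15 to 0.41), 0.00 (-0.25 to 0.25) and 0.17 (-0.05 to 0.38), and the constant exons of -0.22 (-0.73 to 0.29) in alpha and 0.09 (-0.32 to 0.50) in gamma. Each of these intervals included 0. Less the input difference the promoters were at 0.61, 0.59 and -0.00 and the constant exons at -0.19 and -0.93, so these ratios moved with the control.

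Among single exons, 13 of 41 had more than 1.5-fold higher H4K5ac in FC and 2 more than 1.5-fold lower, where 35.7% of all first exons and 23.4% of those of at least 1 kb were that much higher, and 11.5% and 7.74% that much lower. Less the input difference the counts were 7 and 10 of 41, where 14.0% of exons of at least 1 kb were higher and 32.8% lower. Of the 13, 8 were beta, 3 alpha and 2 gamma. Among the 41, 6 had an interval that excluded 0, as did 12.3% of other first exons of at least 1 kb with 10 reads. The largest ratio was that of Pcdhb10 (chr18:37571328-37574168), with 44 H4K5ac reads in FC and 16 in CON, 9 and 19 IgG reads and 62 and 44 input reads, a log2 ratio of 1.65 (0.79 to 2.57). Pcdhb16 (chr18:37637422-37642689) had 70 and 38 H4K5ac reads, 36 and 42 IgG reads and 106 and 74 input reads (1.07, 0.48 to 1.68). Pcdha12 (chr18:37179884-37182277), the largest of alpha, had 41 and 26 H4K5ac reads, 19 and 22 IgG reads and 74 and 27 input reads (0.84, 0.10 to 1.61), and its input differed by more, at 1.09. Pcdhga11 (chr18:37915427-37918021), the largest of gamma, had 75 and 49 H4K5ac reads, 12 and 28 IgG reads and 91 and 45 input reads (0.80, 0.26 to 1.35). Pcdhga9, named because its interval also excluded 0 and chosen after its values were seen, had 66 and 49 H4K5ac reads (0.62, 0.06 to 1.18). In the other direction Pcdhb21 (chr18:37673306-37677967) had 11 H4K5ac reads in FC and 32 in CON, 34 and 45 IgG reads and 62 and 58 input reads (-1.35, -2.49 to -0.33). The smallest ratio in gamma was -0.27 (-0.75 to 0.20) for Pcdhgc3, and in alpha -0.55 (-2.29 to 1.05) for Pcdha1. The C-type exons lay between -0.27 and 0.33, and each of their intervals included 0.

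**Figure D5:**
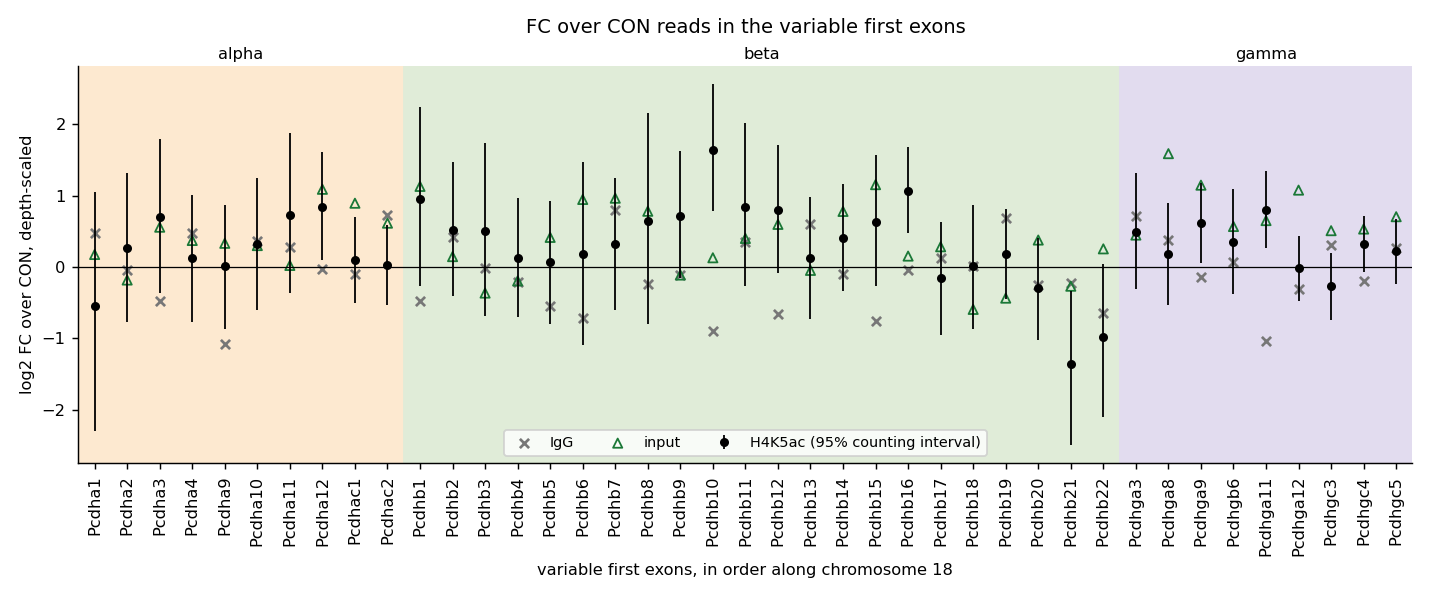
Log2 ratio of FC over CON reads, scaled to library totals, over each variable first exon: H4K5ac (black, with 95% counting intervals), IgG-IP (crosses) and input (triangles). Pcdhb10 (1.65), Pcdhb16 (1.07) and Pcdhb21 (-1.35) lie farthest from 0 among exons whose interval excludes 0, and input exceeds H4K5ac for most gamma exons.

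At the promoters 2 of the 40 with at least 10 H4K5ac reads were more than 1.5-fold higher in FC and 4 lower, all beta, where 11.3% and 6.15% of all promoters were. The promoter of Pcdhb22, among the 4 lower, overlaps the exon of Pcdhb21 by 1961 bp and so shares reads with it. Less the input difference, 15 promoters were higher and 1 lower, where 13.7% and 26.5% of all promoters were. Those shares are not matched for GC content, which was 36.6% in beta and 37.1% in alpha promoters and 46.3% in promoters of other genes. In 1 kb windows of 37% GC the ratio of FC over CON was -0.12 for H4K5ac and -0.54 for input. Whether the count differs from that of promoters of the same GC content was not tested. The promoter of Pcdhb12, chosen after its values were seen, had 29 H4K5ac reads in FC and 9 in CON, 11 and 14 IgG reads and 35 and 41 input reads (1.87, 0.76 to 3.14). The exon of Pcdhb12 had 29 and 19 H4K5ac reads (0.80, -0.09 to 1.71), and the promoter of Pcdhb10 9 and 11 (-0.10, -1.55 to 1.31), so neither gene differed in the same way at both places beyond counting error.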

How the data were processed

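The data are 6 libraries of mouse hippocampus, H4K5ac-ChIP, IgG-IP and input for FC and CON, grouped by the sample labels with 1 library each. Per the methods of the study, fragments were sequenced on a SOLiD instrument and aligned with Bioscope, and several placements of a read could be reported. The submitters' processing notes name the build mm9. The deposited files list 1 line per aligned read, and their score column is the aligner's mapping score (4 to 100), which the authors did not normalize. Reads were 25 to 50 bp, and 11.5% to 17.8% shared position and strand with another read.

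Every deposited read overlapping a region by 1 bp or more was counted. The first exon was that of the transcript with the longest coding sequence, and the promoter the 2 kb before it. Merged alpha and gamma exons were named by the RefSeq gene (GRCm38.p6) of nearest genomic length, without converting coordinates. Ratios were scaled to library totals and given with exact (Clopper-Pearson) 95% intervals, and levels with exact Poisson intervals. Counts past 2-fold (over IgG) or 1.5-fold (FC over CON) required 10 reads in the 2 libraries together, and 0.5 reads were added to each library. Repeated reads from PCR are not independent molecules, so intervals cover counting error only. The ratio and interval code was tested on simulated data. Python 3.11.15, NumPy 2.4.6 and SciPy 1.17.1 were used.

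The genes named were the C-type exons, the first and last exon of each family, the 2 highest and 2 lowest by mean H4K5ac RPKM, the largest and smallest FC over CON ratio with 10 reads, the highest promoter, neighbouring genes and examples from each list. The rule and lists were chosen with earlier results of these data known. Promoters of marker genes of glia, vessels and other tissues were also read: the medians in FC and CON were 0.712 and 0.723 RPKM for astrocytes (4 genes), 0.981 and 1.03 for oligodendrocytes (3), 0.728 and 0.709 for microglia (3) and 0.577 and 0.577 for vessels (2). Alternatives covered repeated reads, mapping score, read placement, control library, depth, region bounds and GC content, and the closing section gives their effect.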

Additional observations from a re-analysis of the deposited data

Results flagged for a closer look

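The first exon of Pcdhb10 lay on opposite sides of IgG in the 2 groups. Its log2 ratio of H4K5ac over IgG was 1.17 (95% counting interval 0.12 to 2.39) in FC, from 44 H4K5ac and 9 IgG reads, and -1.37 (-2.43 to -0.33) in CON, from 16 and 19 reads, and the difference between the groups was not tested, since each has 1 library. With 1 read per position and strand the ratios were 0.82 (-0.33 to 2.15) and -1.53 (-2.65 to -0.44), and with reads of score 20 or more 1.04 (-0.01 to 2.27) and -1.54 (-2.66 to -0.45), so in FC the interval then included 0. Read against input in place of IgG, no beta exon, Pcdhb10 included, had an interval wholly above 0 in either group.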

How the results depend on the processing

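Each family's log2 ratios and the counts of members were recomputed under 16 alternatives, of which 4 (GC windows for the ratio over IgG, IgG as the control of FC over CON, the coding part of the exon, and promoters clear of other exons) were chosen after seeing the data. Of the alternative values, 223 stayed within the counting interval of the reported value or within 1.5 times a count, 44 moved further and 5 changed sign from a value whose interval excluded 0. Among the 223 and 44, 13 values changed sign where the reported interval included 0, such as the alpha promoters for FC over CON less IgG. By family values, gamma was highest in 20 of 20 combinations of setting and group for first exons and in 24 of 24 for promoters, and the order gamma, alpha, beta held in 19 and 24. These combinations include the main setting and mostly recount the same reads. The depth setting moves all families alike and cannot change the order, so the combinations are not independent checks. The cause of the changes was not tested.

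With input in place of IgG, the first exon ratio was -0.57 for alpha in FC, -1.09 for beta in CON and 0.18 for gamma in FC. At promoters it changed sign for alpha in FC (0.13), and was -0.73 (FC) and -1.32 (CON) for beta and 0.36 for gamma in CON. For the gamma constant exons it was 1.14 in FC. Relative to windows of the same GC content, gamma first exons changed sign (-0.25 in FC and -0.27 in CON), alpha was at -1.41 and -1.34 and beta at -1.37 and -1.64. Promoters were then at -0.23 and -0.11 for alpha and -0.86 and -1.18 for beta, and the gamma constant exons at 1.29 and 1.45. Less the FC over CON ratio of input, the H4K5ac ratio changed sign for alpha (-0.18) and gamma (-0.53) first exons, and was 0.10 for beta first exons, 0.61 for alpha and 0.59 for beta promoters and -0.93 for gamma constant exons. Less that of IgG, alpha promoters were at -0.25. The median of the members' ratios was -0.82 (alpha, CON) and 0.17 (gamma, CON) for first exons, and -1.39 and -0.99 (alpha, FC and CON) and -1.78 (beta, FC) for promoters. Promoters of 1 kb gave -0.45 and -0.90 for alpha, -1.24 and -1.43 for beta, and 0.42 for FC over CON in alpha. The coding part of the beta exons, without Pcdhb20, gave -0.63 in FC.

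The shares in brackets are of all first exons of at least 1 kb, or of all promoters, past the same fold under the same setting. With 1 read per position and strand, 3 first exons exceeded IgG by more than 2-fold in FC in place of 6 (34.9%), 1 in place of 2 was more than 1.5-fold lower in FC than in CON (5.17%), and 5 promoters in place of 2 were higher (9.75%) and 0 in place of 4 lower (4.80%), with no test behind these counts. With input in place of IgG, 0 first exons were more than 2-fold higher in FC (11.8%) and 9 promoters in place of 24 lower (11.5%). Less the input ratio, 7 first exons in place of 13 were higher in FC than in CON (14.0%) and 10 in place of 2 lower (32.8%), and 15 promoters were higher (13.7%) and 1 lower (26.5%). These shares were not matched for GC content. With a score of 20 or more, 4 promoters were higher (12.1%).

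No paired analysis was possible because each group has 1 library of each kind and no test was run. Most beta exons hold under 50 H4K5ac reads per library, which limits the precision of single beta exons.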
